A study of Mus musculus with 10 samples.

Results

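T cell receptor signalling genes were examined in regulatory T (Treg) cells, a CD4 lineage that depends on the factor Foxp3 and holds immune responses in check, with and without the kinase LKB1. The set held 34 genes chosen by function: the CD3 chains, the co-receptor and adhesion receptors, the proximal kinases, adaptors, second messenger enzymes, negative regulators and NFAT factors. A gene was measured through probe sets that name it as their single symbol, and through the brightest of these where there were several. That gave 32 of the 34 genes, among 22180 genes in all. Cd247, the CD3 zeta chain, and Lck, the kinase bound to CD4, had no such probe set and are not analysed here.

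The samples were 5 LKB1-deficient and 5 wild type (WT) Treg samples from mouse, each on its own array. The LKB1-deficient samples carry a deletion of Stk11, the gene of LKB1, and the WT samples carry no stated alteration. Both were sorted from mixed bone marrow chimeras, animals whose blood cells come from donor marrow of more than 1 genotype, and were lysed with no culture step. The labels give neither the Cre line, the deleted exons, the markers used for the sort, the age of the animals, nor whether the samples of a group came from separate animals. The p-values therefore reflect only how far these samples differ among themselves, part of which may be technical. LKB1 activates AMPK and related kinases, and the comparison asks which transcripts of Treg cells differ when it is missing.

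When the T cell receptor binds its ligand, Lck and Fyn phosphorylate the CD3 chains, and the kinase Zap70 docks there and phosphorylates the scaffolds Lat and Lcp2 (SLP-76). These gather Plcg1, whose products release calcium and activate protein kinase C theta (Prkcq) and Rasgrp1. Calcium activates calcineurin, which sends NFAT factors to the nucleus, and phosphatases, ubiquitin ligases and diacylglycerol kinases hold the cascade back. Treg cells need receptor signals both to form and to keep their effector programme.

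Values are the authors' RMA values, log2 signals per probe set, and differences are LKB1-deficient minus WT. limma was run over all 22180 genes, and calls are those with a p under 0.05 after Benjamini-Hochberg adjustment. Stk11 itself was at 6.57, 6.01, 6.05, 6.71 and 6.78 on LKB1-deficient arrays 1 to 5, against 6.61, 6.69, 6.75, 6.95 and 6.92 on WT arrays 1 to 5 (difference -0.36, SE 0.16, limma adjusted p = 0.335). LKB1-deficient arrays 4 and 5 lay within the WT range, and array 1 lay just below it, so every value for LKB1-deficient cells refers to the arrays labelled so. Without LKB1-deficient arrays 1, 4 and 5, a fit chosen after the data were seen, Stk11 differed by -0.75 (limma adjusted p = 0.0178). Stk11 was highest on those 3 arrays within the LKB1-deficient group, so that fit was bound to give a larger difference, and it keeps the arrays on which Stk11 was lowest. Foxp3 was at 9.86, 11.41, 11.50, 11.29 and 11.10 on LKB1-deficient arrays 1 to 5, and at 10.95 to 11.19 on WT arrays. The mean of 11 measured monocyte, macrophage and dendritic cell markers was 9.00 and 9.13 on LKB1-deficient arrays 4 and 5 and 6.84 to 7.35 on arrays 1 to 3, while WT arrays ranged over 6.69 to 7.01. The mean of 9 B and plasma cell markers was 7.12, 6.83 and 7.05 on LKB1-deficient arrays 1, 4 and 5 and 5.76 and 5.91 on arrays 2 and 3, while WT arrays ranged over 5.63 to 5.96. Of these 20 markers, 3 macrophage markers and 0 B cell markers lay above the WT range on all 5 LKB1-deficient arrays, and none was called. Over all genes 0.996% lay higher with no overlap and 0.234% were called higher. The other marker lists held 6 Treg and T cell identity, 8 NK cell, 3 CD8 T cell and 2 erythroid and platelet markers. Itga2b, of the last list, lay higher with no overlap (5.72 to 5.84 against 5.27 to 5.68) but was not called (limma adjusted p = 0.187). Among these lists 2 genes were called, both higher in LKB1-deficient cells with no overlap between the groups. Klrd1, an NK cell receptor gene, was at 5.02 to 6.42 on LKB1-deficient arrays, against 3.77 to 4.53 on WT arrays (difference 1.53, limma adjusted p = 0.017). Cd8a, the CD8 alpha chain gene, was at 5.90 to 6.70 on LKB1-deficient arrays, against 5.12 to 5.80 on WT arrays (difference 0.77, limma adjusted p = 0.0423). The mean of 3 CD8 T cell markers was 6.52, 6.44, 6.21, 6.13 and 6.32 on LKB1-deficient arrays 1 to 5, all above the 5.84 to 6.05 of WT arrays, arrays 2 and 3 included. Of these 3 only Cd8a parted the groups. Cd8b1 (difference 0.08) and Gzmk (0.26) overlapped and were not called (limma adjusted p = 0.79 and 0.511). Of the 8 NK cell markers, Klrd1 alone lay above the WT range on all 5 LKB1-deficient arrays. The part of these markers in the results was not tested. Array values have no true zero, so no marker could be said to be absent.

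Most of the measured members were not called, which does not show that their levels were equal. Of the 32 measured genes, 2 fell in LKB1-deficient cells, the phosphatase-family gene Ubash3b and the transcription factor gene Nfatc1, 0 rose, and 30 did not pass. Over all genes 0.83% were called lower and 0.234% higher. Among the brighter 60% of genes, where all 32 lie, the shares were 2.13% and 0.541%. At an unadjusted limma p under 0.05 there were 7 members lower and 1 higher, against 8.8% and 5.19% of all genes. The estimates ran from -0.70 to 0.41 on the log2 scale. They were negative for 26 of the 32, with a median of -0.11, whereas over all genes 49.2% were negative and the median was 0.003. Among the brighter 60% of genes the median was -0.04.

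**Figure D1:**
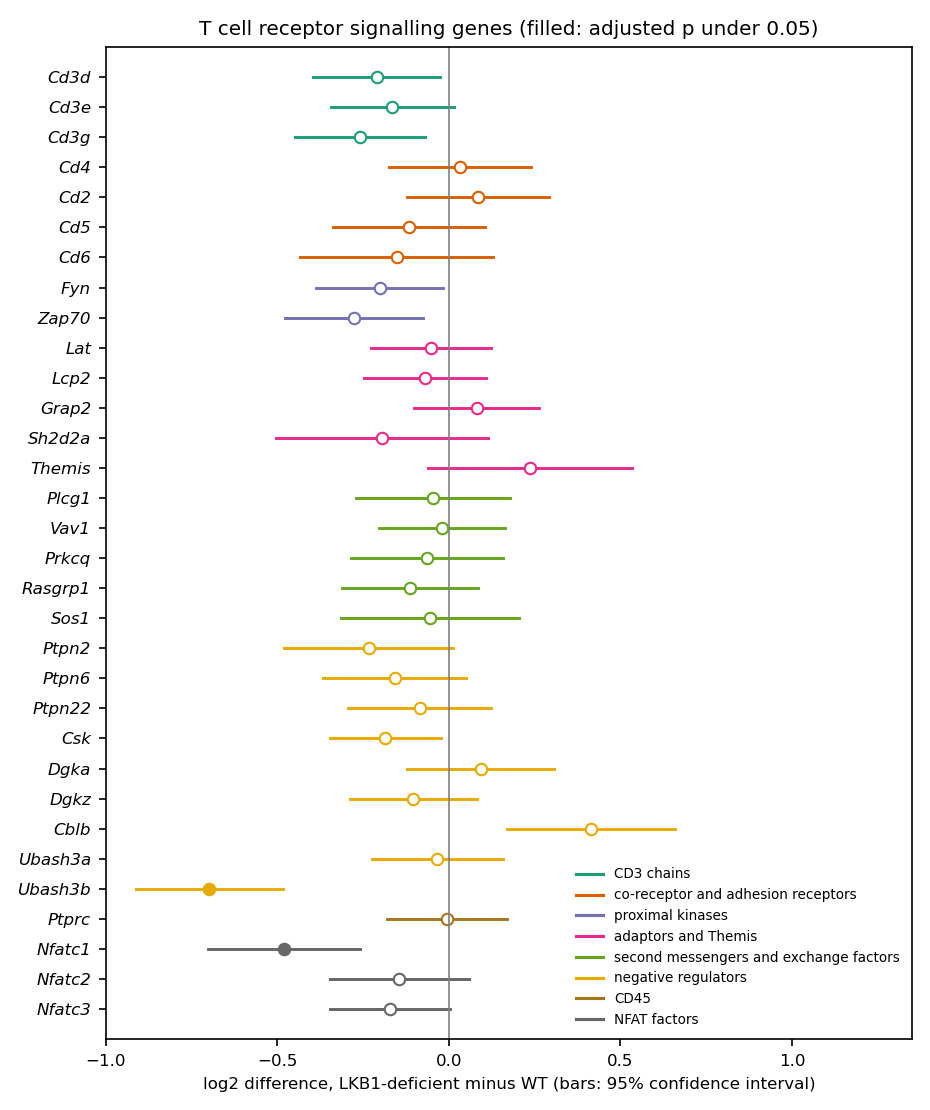
Log2 difference, LKB1-deficient minus WT, of the 32 measured genes on the x axis, ordered and coloured by role, with 95% confidence intervals from limma; filled points passed an adjusted p under 0.05. Ubash3b at -0.70 and Nfatc1 at -0.48 are filled, Cblb at 0.41 is the highest, and the other genes lie between -0.28 and 0.24.

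The CD3 chains carry the tyrosine motifs that start the signal inside the cell. Cd3d was at 11.47, 11.63, 11.66, 11.54 and 11.34 on LKB1-deficient arrays 1 to 5, against 11.77, 11.69, 11.74, 11.75 and 11.74 on WT arrays 1 to 5. All 5 LKB1-deficient values lay below all 5 WT values, the lowest being array 5. Its difference was -0.21 (SE 0.09, limma adjusted p = 0.285).

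Cd3e was at 11.76, 11.75, 11.93, 11.67 and 11.67 on LKB1-deficient arrays, against 11.98, 11.86, 11.96, 11.93 and 11.87 on WT arrays. LKB1-deficient array 3 lay inside the WT range and the others below it, with a difference of -0.16 (limma adjusted p = 0.40). Cd3g was at 11.11, 10.99, 11.17, 11.00 and 10.90 on LKB1-deficient arrays, against 11.39, 11.16, 11.38, 11.28 and 11.24 on WT arrays. The groups touched only at LKB1-deficient array 3 and WT array 2, and the difference was -0.26 (SE 0.09, limma adjusted p = 0.194). So all 3 measured CD3 chains had negative estimates, 2 of them with an unadjusted p under 0.05, and none was called. Over all genes 8.8% were lower at that unadjusted threshold. In a bulk sample, fewer T cells and less CD3 RNA per T cell cannot be told apart. The chains were lowest on LKB1-deficient array 5 for Cd3d and Cd3g and on arrays 4 and 5 for Cd3e, the arrays with the highest macrophage marker means. The part of those markers in the difference was not tested. In the fit without LKB1-deficient arrays 1, 4 and 5 the differences were -0.09 for Cd3d, -0.08 for Cd3e and -0.21 for Cd3g (limma adjusted p = 0.75, 0.797 and 0.445). Within its group Cd3d was lowest on the arrays left out, so its difference was bound to be smaller. Within the first submission set, replicates 1 to 3 by running codes in the sample descriptions whose meaning is not stated, the differences were -0.15, -0.12 and -0.22, and within the second, replicates 4 and 5, they were -0.30, -0.23 and -0.31.

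Cd3d and Cd3g are neighbours on chromosome 9, transcribed away from each other from start sites 1355 bases apart. The bases before these 2 starts are shown because the genes share that stretch and had estimates of the same sign. Each sequence is the 250 bases upstream of the outermost start in RefSeq's GRCm38.p6 annotation, 5′ to 3′ on the gene's strand. Capitals mark GGAAA or its reverse complement TTTCC, the core letters bound by NFAT factors.
Cd3d (chr9:44981536-44981785, plus strand): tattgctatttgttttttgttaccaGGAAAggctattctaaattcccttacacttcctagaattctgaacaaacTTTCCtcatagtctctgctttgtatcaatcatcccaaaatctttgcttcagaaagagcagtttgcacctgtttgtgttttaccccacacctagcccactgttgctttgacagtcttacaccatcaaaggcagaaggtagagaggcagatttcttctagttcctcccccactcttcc
Cd3g (chr9:44980432-44980681, minus strand): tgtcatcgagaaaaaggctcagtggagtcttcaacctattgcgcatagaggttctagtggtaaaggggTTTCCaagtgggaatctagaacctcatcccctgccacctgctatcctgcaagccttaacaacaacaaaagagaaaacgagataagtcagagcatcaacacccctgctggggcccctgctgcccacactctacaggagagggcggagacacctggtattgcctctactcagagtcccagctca
The core occurs 2 times upstream of Cd3d and once upstream of Cd3g. Such a short motif is common: it stood in 55.6% of 27025 upstream windows of this length, 1 per gene, and in 18 of the 26 windows of members in the table. Of the other motifs searched on both strands, the E-box CANNTG stood in 66.1% of all windows and 19 of the 26, the AP-1 letters TGANTCA in 6.85% and 0, the forkhead letters GTAAACA in 3.06% and 3, and TGACG, part of the cyclic AMP response element, in 17.8% and 3. Each motif was counted on its own, whether or not it overlapped another, and a match is a description of letters, not a site.

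The co-receptor and adhesion receptors sit beside the receptor and tune its signal. Cd4, which brings Lck to the receptor, averaged 10.00 ± 0.16 in LKB1-deficient and 9.97 ± 0.075 in WT samples (SD, n = 5 each), a difference of 0.03 whose 95% confidence interval ran from -0.18 to 0.24. Cd2, an adhesion receptor, differed by 0.08 (-0.12 to 0.29), and Cd5, a receptor that dampens signalling, by -0.12 (-0.34 to 0.105). The sign of Cd4 turned to -0.02 when array medians were subtracted. Cd6, a relative of Cd5, was at 9.74, 10.33, 10.51, 10.03 and 10.04 on LKB1-deficient arrays, against 10.20, 10.34, 10.26, 10.34 and 10.28 on WT arrays. Its LKB1-deficient values fell on both sides of the WT range, with array 3 above it and arrays 1, 4 and 5 below. None of the 4 passed at an unadjusted p under 0.05. Ptprc, which encodes CD45, the phosphatase that keeps Lck active, averaged 11.55 ± 0.09 in LKB1-deficient and 11.55 ± 0.07 in WT samples (SD, n = 5 each). Its difference of -0.005 had a 95% confidence interval of -0.18 to 0.17.

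Both measured proximal kinases had negative estimates. Zap70 was at 8.63, 8.83, 8.82, 8.56 and 8.58 on LKB1-deficient arrays, against 8.90, 9.07, 9.08, 8.89 and 8.87 on WT arrays. The groups did not overlap, the lowest values being those of LKB1-deficient arrays 4 and 5. The difference was -0.28 (SE 0.09, 95% confidence interval -0.48 to -0.08), and it did not pass (limma adjusted p = 0.188). Without LKB1-deficient arrays 1, 4 and 5 it was -0.14 (limma adjusted p = 0.648). Since Zap70 was lowest on those 3 arrays, the difference without them was bound to be smaller. Fyn, the other Src family kinase of T cells, differed by -0.20 (-0.39 to -0.02, limma adjusted p = 0.31).

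None of the scaffolds and adaptors passed, nor at an unadjusted p under 0.05. Lat averaged 11.54 ± 0.10 in LKB1-deficient and 11.60 ± 0.05 in WT samples, and Lcp2 10.61 ± 0.10 and 10.67 ± 0.06 (SD, n = 5 each). The 95% confidence intervals of these differences were -0.23 to 0.12 for Lat and -0.25 to 0.11 for Lcp2. Grap2 (GADS), which links Lat to Lcp2, differed by 0.08 (-0.10 to 0.26). Sh2d2a, the T cell-specific adaptor that binds Lck, and Themis, a regulator of receptor signal strength in thymocytes, had the widest spread among the LKB1-deficient arrays together with Cd6. Sh2d2a was at 9.14, 10.00, 9.87, 9.75 and 9.64 on LKB1-deficient arrays, against 9.76, 9.82, 9.94, 10.00 and 9.86 on WT arrays. LKB1-deficient array 1 was far below the rest, array 2 was level with the highest WT array, and array 3 lay within the WT range. Themis was at 8.63, 8.17, 7.86, 7.99 and 7.98 on LKB1-deficient arrays, against 7.93, 7.99, 7.94, 7.69 and 7.89 on WT arrays. It was the reverse of Sh2d2a on LKB1-deficient array 1, which had the highest Themis of all 10 arrays. That array also had the lowest Foxp3 of the 10. Neither difference passed (-0.20 and 0.24, limma adjusted p = 0.593 and 0.482), and without LKB1-deficient array 1 they were -0.06 and 0.11.

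The enzymes that turn the signal into calcium, diacylglycerol and Ras activity did not pass singly, nor at an unadjusted p under 0.05. Plcg1 (phospholipase C gamma 1) differed by -0.05, Vav1, an exchange factor for Rac, by -0.02, Prkcq by -0.06, Rasgrp1, the Ras exchange factor driven by diacylglycerol, by -0.11, and Sos1, the other Ras exchange factor, by -0.05. The widest of these 5 confidence intervals (95%) was that of Sos1, from -0.31 to 0.20. All 5 estimates were negative with all arrays, and that of Vav1 was 0.02 after a second quantile normalization. Without LKB1-deficient arrays 1, 4 and 5 all 5 were positive, from 0.01 for Vav1 to 0.16 for Plcg1. Within their group Plcg1, Prkcq and Rasgrp1 were lowest on the arrays left out, so their estimates were bound to be higher.

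Negative regulators held both extremes of the set. Ubash3b (STS-1), a histidine phosphatase that removes phosphates from Zap70, was at 6.64, 6.81, 7.05, 6.84 and 7.07 on LKB1-deficient arrays, against 7.55, 7.58, 7.48, 7.64 and 7.64 on WT arrays. Every LKB1-deficient value lay below every WT value. It was 1.62-fold lower in LKB1-deficient cells (difference -0.70, SE 0.10, limma adjusted p = 0.00998).

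The decrease of Ubash3b was alike in both submission sets, -0.71 in the first and -0.69 in the second. Neither set alone passed (limma adjusted p = 0.20 and 0.0968), and with the set as a block the adjusted p was 0.0127. With that block Ubash3b was the only member called, against 0.857% of all genes lower and 0.316% higher. In the second set alone 0 members were called, 1 being lower at an unadjusted limma p under 0.05, against 0.207% of all genes called lower and 1.91% higher. Ubash3b stayed past the threshold whichever array was left out (-0.74 to -0.64, adjusted p 0.00489 to 0.0401), and also without LKB1-deficient arrays 1, 4 and 5 (-0.65, adjusted p = 0.0207). Ubash3a, its relative with weak phosphatase activity, differed by -0.03 (95% confidence interval -0.22 to 0.16). The intervals of Ubash3a and Ubash3b do not meet, but the difference between the genes was not tested.

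Cblb, an E3 ubiquitin ligase that restrains signals given without CD28, was at 10.55, 11.09, 11.00, 10.84 and 10.66 on LKB1-deficient arrays, against 10.32, 10.45, 10.33, 10.40 and 10.57 on WT arrays. LKB1-deficient array 1 lay just below WT array 5, and the other 4 lay above the WT range. It had the highest estimate of the set, 0.41 (SE 0.11, 95% confidence interval 0.17 to 0.66), and did not pass (limma adjusted p = 0.111). Without LKB1-deficient array 1 it passed (0.48, adjusted p = 0.0366), in a fit that called 0.812% of all genes higher and 1.53% lower. It also passed without LKB1-deficient arrays 1, 4 and 5 (0.63, adjusted p = 0.0221). Since Cblb was lowest on arrays 1, 4 and 5, the difference without them was bound to be larger. Within the submission sets it was 0.51 and 0.27.

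The upstream 250 bases of both genes are shown as those of the lowest and the highest estimate, with NFAT core letters in capitals as above.
Ubash3b (chr9:41158063-41158312, minus strand): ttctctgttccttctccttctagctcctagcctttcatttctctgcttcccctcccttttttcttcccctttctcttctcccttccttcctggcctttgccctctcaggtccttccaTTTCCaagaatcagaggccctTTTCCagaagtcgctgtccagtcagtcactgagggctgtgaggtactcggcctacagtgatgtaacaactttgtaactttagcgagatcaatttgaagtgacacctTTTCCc
Cblb (chr16:52031299-52031548, plus strand): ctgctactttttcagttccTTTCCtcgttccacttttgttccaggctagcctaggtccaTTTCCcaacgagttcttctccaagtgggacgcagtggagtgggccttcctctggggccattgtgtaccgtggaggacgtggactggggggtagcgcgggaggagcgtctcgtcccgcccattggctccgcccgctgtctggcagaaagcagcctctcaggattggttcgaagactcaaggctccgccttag
The window of Ubash3b held 3 core matches and that of Cblb 2. Cblb also had 1 E-box and Ubash3b had 0, and neither held the AP-1, forkhead or TGACG letters.

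Csk, the kinase that switches off Lck and Fyn, was at 8.97, 9.09, 9.00, 8.97 and 8.97 on LKB1-deficient arrays, against 9.14, 9.17, 9.17, 9.21 and 9.24 on WT arrays. The groups did not overlap, yet the difference of -0.19 (SE 0.07) did not pass (limma adjusted p = 0.276). Ptpn6 (SHP-1), a phosphatase found in most blood cells, was at 9.06, 9.07, 9.05, 9.31 and 9.42 on LKB1-deficient arrays, against 9.28 to 9.40 on WT arrays. Arrays 1 to 3 lay below the WT range, array 4 lay within it and array 5 just above, and macrophage markers were highest on arrays 4 and 5. The part of those markers in the result was not tested. Its difference was -0.27 in the first submission set and 0.01 in the second, and -0.16 over all arrays (limma adjusted p = 0.507).

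The remaining negative regulators did not pass. Ptpn2, a phosphatase of Lck and of cytokine signalling, differed by -0.23 (95% confidence interval -0.48 to 0.01), and without LKB1-deficient arrays 1, 4 and 5 by -0.01. Within its group Ptpn2 was lowest on the arrays left out, so that difference was bound to be smaller. Ptpn22, which acts with Csk, differed by -0.09, and the diacylglycerol kinases Dgka and Dgkz by 0.09 and -0.10. Dgkz had 2 probe sets, and with the mean of both its difference was -0.22 (limma adjusted p = 0.574). Of the 9 negative regulators 1 fell and 0 rose, the other 8 did not pass, and the median difference was -0.10. At an unadjusted p under 0.05, 2 were lower and 1 higher. Over all genes 0.83% were called lower and 0.234% higher, and 8.8% and 5.19% at the unadjusted threshold.

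**Figure D2:**
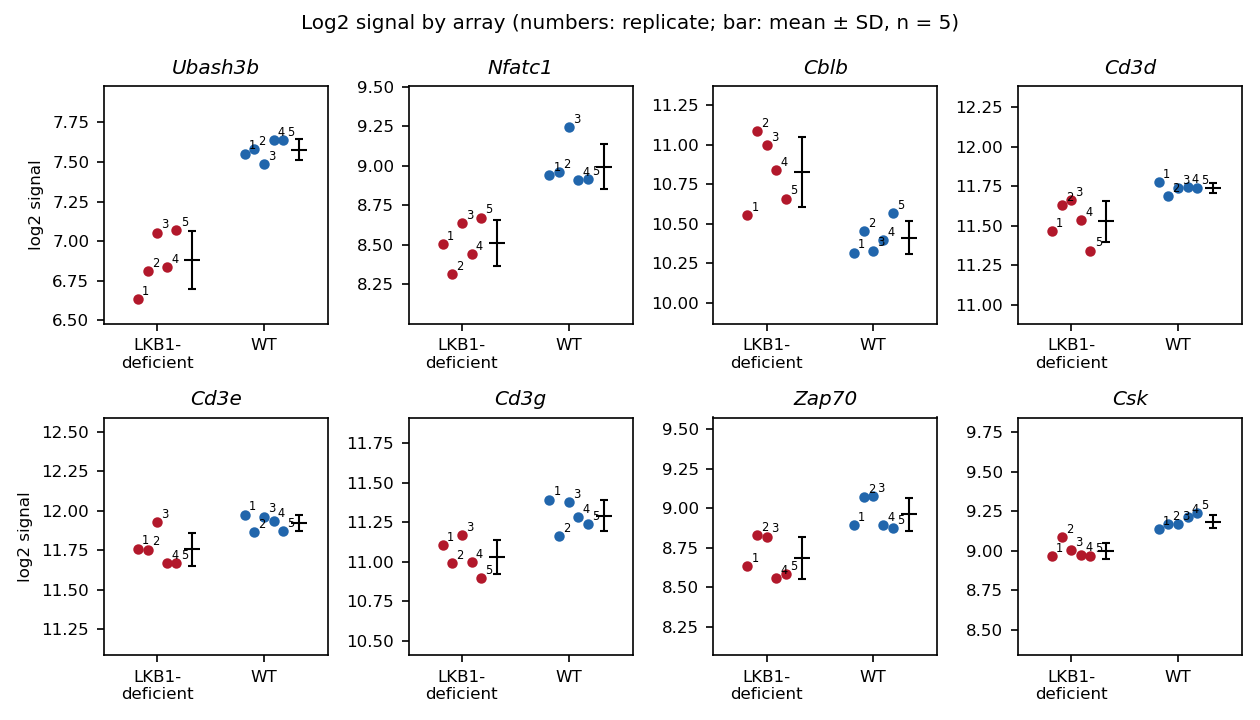
Log2 signal of 8 genes on each array, LKB1-deficient left and WT right, numbered by replicate, with the mean ± SD of 5 arrays beside them; every panel spans the same log2 range. For Ubash3b, Nfatc1, Cd3d, Zap70 and Csk all 5 LKB1-deficient arrays lie below all 5 WT arrays, whereas the groups overlap for Cblb, Cd3e and Cd3g.

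NFAT factors carry the calcium signal to the genome, and Nfatc1 is itself induced by receptor signalling. Nfatc1 was at 8.50, 8.31, 8.64, 8.44 and 8.67 on LKB1-deficient arrays, against 8.94, 8.96, 9.25, 8.91 and 8.91 on WT arrays. The groups did not overlap, and WT array 3 stood above the other WT arrays. Nfatc1 was 1.39-fold lower in LKB1-deficient cells (difference -0.48, SE 0.10, limma adjusted p = 0.0473).

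The call of Nfatc1 was close to the threshold. It held in 1 of the 10 fits that left out an array, the one without LKB1-deficient array 1 (adjusted p 0.045), and the estimates ran from -0.52 to -0.42 with adjusted p up to 0.127. The lost calls thus came without LKB1-deficient array 2, 3, 4 or 5 and without any of WT arrays 1 to 5. Those fits also called fewer of all genes than the 52 higher and 184 lower with all arrays. Their calls ran from 8 and 30 without WT array 4 to 47 and 142 without LKB1-deficient array 2. With the submission set as a block it did not pass (adjusted p = 0.0582), nor within the sets (-0.56 and -0.35, adjusted p = 0.283 and 0.381) or after a second quantile normalization (-0.45, adjusted p = 0.0644). Without LKB1-deficient arrays 1, 4 and 5 the difference was -0.52 (adjusted p = 0.101).

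Nfatc3 was at 9.51, 9.68, 9.68, 9.56 and 9.62 on LKB1-deficient arrays, against 9.73, 9.70, 9.77, 9.88 and 9.85 on WT arrays. The highest LKB1-deficient values lay just below WT array 2, so the groups barely parted, and the difference of -0.17 did not pass (limma adjusted p = 0.364). Nfatc2, the NFAT factor of resting T cells, differed by -0.14 (95% confidence interval -0.35 to 0.06, limma adjusted p = 0.532). So 1 of the 3 NFAT genes fell and the others did not pass, against 0.83% of all genes called lower.

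Across the set, 6 members lay lower with no overlap between the groups, Cd3d, Zap70, Csk, Ubash3b, Nfatc1 and Nfatc3, and 0 lay higher. Over all genes 3.71% lay lower and 0.996% higher with no overlap, and among the brighter 60% of genes 5.99% and 1.16%. The LKB1-deficient arrays were the more variable: 29 of the 32 members had the larger SD there, with a median SD of 0.14 against 0.07 in WT. The same held for 68.8% of all genes. Over all genes, Pearson's r ran from 0.969 to 0.989 between pairs of LKB1-deficient arrays and from 0.990 to 0.993 between pairs of WT arrays.

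The arrays divided unevenly. The median deviation of the 32 members from their WT means was -0.18, -0.16 and -0.17 on LKB1-deficient arrays 1, 4 and 5, and 0.04 and -0.01 on arrays 2 and 3. The same median over all genes stayed between -0.03 and 0.01 on these 5 arrays. Within the LKB1-deficient group, 17 members had their minimum on array 1 (53.1%, against 26.1% of all genes), and 18 had their maximum on array 2 (56.3%, against 19.4%). On arrays 1, 4 and 5, 25, 21 and 20 members were below the whole WT range, and on arrays 2 and 3, 10 and 10.

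Marker means of other cell types also differed by array, not all in the same way. The B and plasma cell list was highest on LKB1-deficient arrays 1, 4 and 5, and the macrophage list on arrays 4 and 5. The CD8 T cell list was highest on arrays 1 and 2. The mean of 2 erythroid and platelet markers was 5.27, 6.26 and 6.08 on LKB1-deficient arrays 1, 4 and 5. It was 5.46 and 5.57 on arrays 2 and 3, and 5.35 to 5.52 on WT arrays. The part of these markers in the members' values was not tested. The mean of 8 NK cell markers was 5.53, 4.95 and 5.16 on arrays 1, 4 and 5 and 4.46 and 4.65 on arrays 2 and 3, while WT arrays ranged over 4.35 to 4.47. The mean of 6 Treg and T cell identity markers was 9.60, 10.09 and 10.04 on arrays 1, 4 and 5 and 10.40 and 10.39 on arrays 2 and 3, while WT arrays ranged over 10.18 to 10.27. Without arrays 1, 4 and 5 the members' median was 0.01 and 15 of 32 estimates were negative. Since the members' medians were lowest on those 3 arrays, the median without them was bound to be higher. In that fit Ubash3b fell and Cblb rose, 1 member in each direction, against 0.915% of all genes called lower and 0.694% higher.

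**Figure D3:**
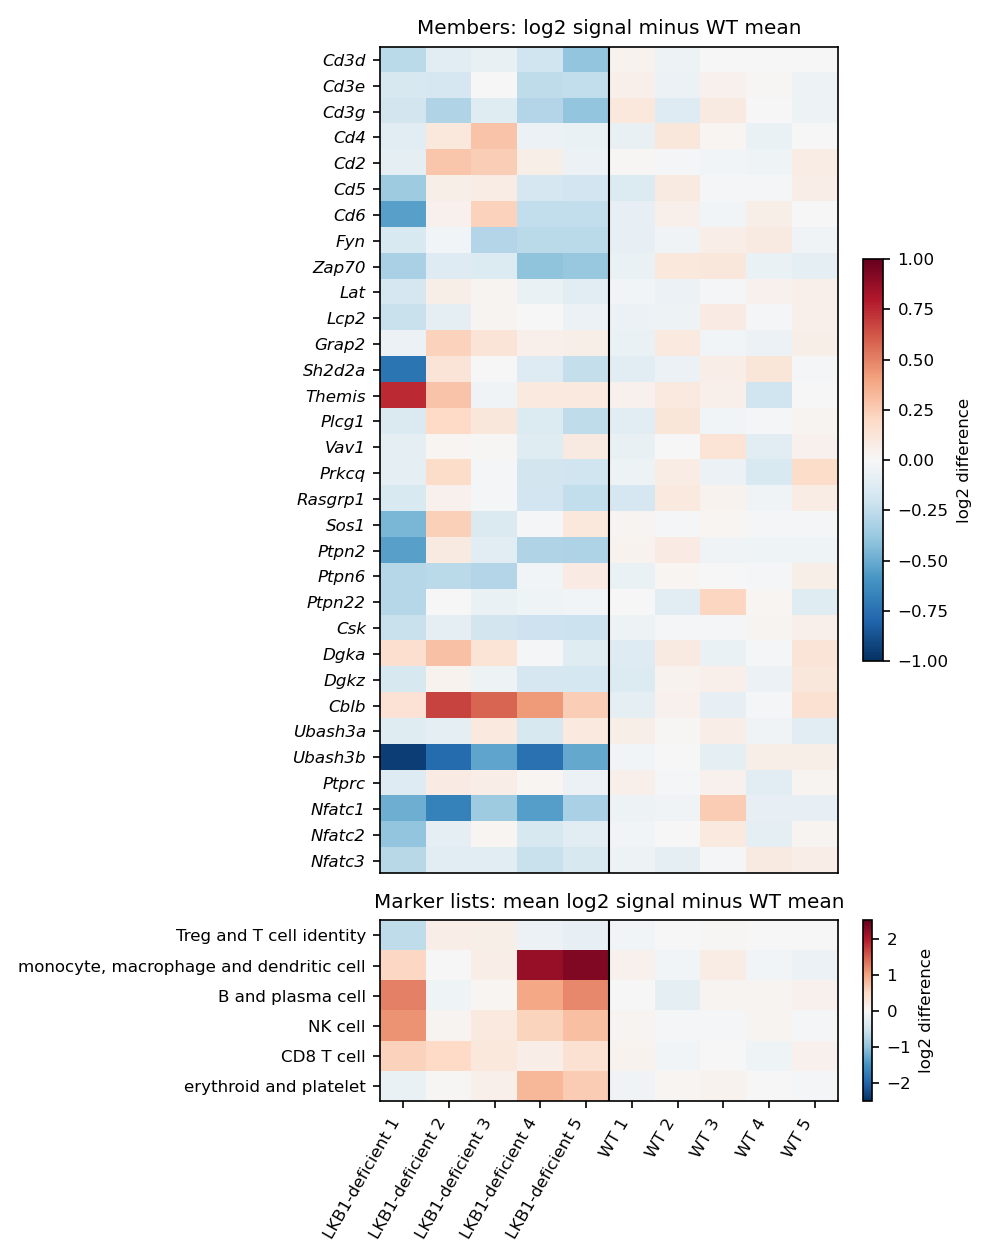
Deviation of each member (upper panel) and of each marker list mean (lower panel) from its WT mean, in log2 units, with LKB1-deficient arrays in the left columns and WT arrays in the right ones. Ubash3b and Nfatc1 are blue on all 5 LKB1-deficient arrays, Cblb is red on them, and 25, 21 and 20 members lie below the WT range on arrays 1, 4 and 5, where the B cell list is red, against 10 on each of arrays 2 and 3.

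Other genes of the pathway were taken from lists by step, of which 90 of 103 genes were measured. In LKB1-deficient cells 7 of these fell and 0 rose, 83 did not pass, and the median difference was -0.04. Their 7 calls are 4 TCR-induced transcription factors, 1 adaptor and 2 negative regulators, and at an unadjusted limma p under 0.05 there were 16 lower and 7 higher. Over all genes the shares were 0.83% called lower and 0.234% called higher, and 8.8% lower and 5.19% higher at the unadjusted threshold. The lists were chosen with earlier results of these data known.

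Among 15 further receptor, kinase and adaptor genes 1 fell, against 0.83% of all genes called lower. Sh2d1a (SAP), the adaptor of SLAM family receptors, was at 7.52, 7.30, 7.61, 7.63 and 7.56 on LKB1-deficient arrays, against 8.47, 8.07, 8.38, 8.23 and 8.24 on WT arrays. The gap between the groups was wider than the range within either. It was 1.69-fold lower (difference -0.76, SE 0.10, limma adjusted p = 0.00893) and passed in all 10 fits that left out an array and without LKB1-deficient arrays 1, 4 and 5 (-0.82, adjusted p = 0.0196). In the submission sets the differences were -0.83 and -0.64 (adjusted p = 0.183 and 0.0886).

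Of 26 further negative regulators 2 fell, against 0.83% of all genes called lower. Lax1, a membrane adaptor that dampens lymphocyte receptor signals, was at 8.33, 7.95, 7.85, 8.07 and 7.89 on LKB1-deficient arrays, against 8.60, 8.47, 8.94, 8.69 and 8.59 on WT arrays, with no overlap. Its difference was -0.64 (SE 0.12, limma adjusted p = 0.0275). Spry1, an inhibitor of Ras and MAP kinase signalling, was at 5.63, 6.28, 5.86, 6.35 and 6.30 on LKB1-deficient arrays, against 6.85, 6.66, 6.90, 6.70 and 7.20 on WT arrays. These groups did not overlap either, and the difference was -0.78 (SE 0.16, limma adjusted p = 0.0396). Lax1 passed in 2 and Spry1 in 3 of the 10 fits that left out an array, with adjusted p up to 0.0823 and 0.112, and both passed without LKB1-deficient arrays 1, 4 and 5 (-0.76 and -0.79).

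The calcium and calcineurin list (17 measured) and the Ras, MAP kinase and PI3 kinase list (17 measured) had no gene called by limma. At an unadjusted limma p under 0.05 the calcium list had 1 gene lower and 0 higher, and the Ras list 0 lower and 2 higher. Over all genes 8.8% were lower and 5.19% higher at that threshold, and 0.83% and 0.234% were called. The smallest p in each belonged to Ppp3cb, a calcineurin catalytic subunit (-0.20, limma adjusted p = 0.327), and Braf, a MAP kinase kinase kinase (0.23, limma adjusted p = 0.351).

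Genes induced by receptor signalling held the other 4 calls, all lower, out of 15, while 0.83% of all genes and 2.13% of the brighter 60% were called lower. This list too was chosen with earlier results known. Of its 15 estimates 10 were negative and 5 positive. At an unadjusted limma p under 0.05 there were 5 lower and 2 higher, against 8.8% and 5.19% of all genes. The 2 higher, named after their values were seen, were Nr4a3 (0.55) and Irf8 (0.60), neither called (limma adjusted p = 0.196 and 0.317). Irf8 was at 7.18, 7.87, 7.75, 8.65 and 8.76 on LKB1-deficient arrays 1 to 5, against 7.13 to 7.69 on WT arrays. It was highest on arrays 4 and 5, which had the highest macrophage marker means. The part of those markers in its value was not tested. Batf, an AP-1 family factor of effector T cells, was at 6.96, 7.18, 7.16, 7.47 and 7.30 on LKB1-deficient arrays, against 8.14, 7.87, 8.22, 8.05 and 8.13 on WT arrays, and was 1.83-fold lower (limma adjusted p = 0.0074). Egr2, a zinc finger factor induced through calcium and Ras, was at 8.03, 7.93, 7.95, 7.91 and 8.08 on LKB1-deficient arrays, against 8.52, 8.38, 8.58, 8.43 and 8.48 on WT arrays. Its groups were tight and apart, with a difference of -0.50 (SE 0.08, limma adjusted p = 0.0165).

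Irf4, which acts with Batf in effector Treg cells, was at 7.08, 6.94, 6.59, 6.28 and 6.92 on LKB1-deficient arrays, against 7.32, 7.60, 7.69, 7.65 and 7.25 on WT arrays. Myc, a driver of growth, was at 8.21, 9.08, 9.14, 8.92 and 8.75 on LKB1-deficient arrays, against 9.60, 9.68, 9.57, 9.61 and 9.47 on WT arrays. Neither had overlapping groups, and the differences were -0.74 (limma adjusted p = 0.0442) and -0.76 (0.0398). Of the fits that left out an array, Batf passed in 10, Egr2 in 7, Myc in 3 and Irf4 in 1, with adjusted p up to 0.0341, 0.0621, 0.109 and 0.13. Without LKB1-deficient arrays 1, 4 and 5 Batf (-0.91) and Egr2 (-0.54) passed, while Myc (-0.47, adjusted p = 0.0557) and Irf4 (-0.74, adjusted p = 0.0513) did not.

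**Figure D4:**
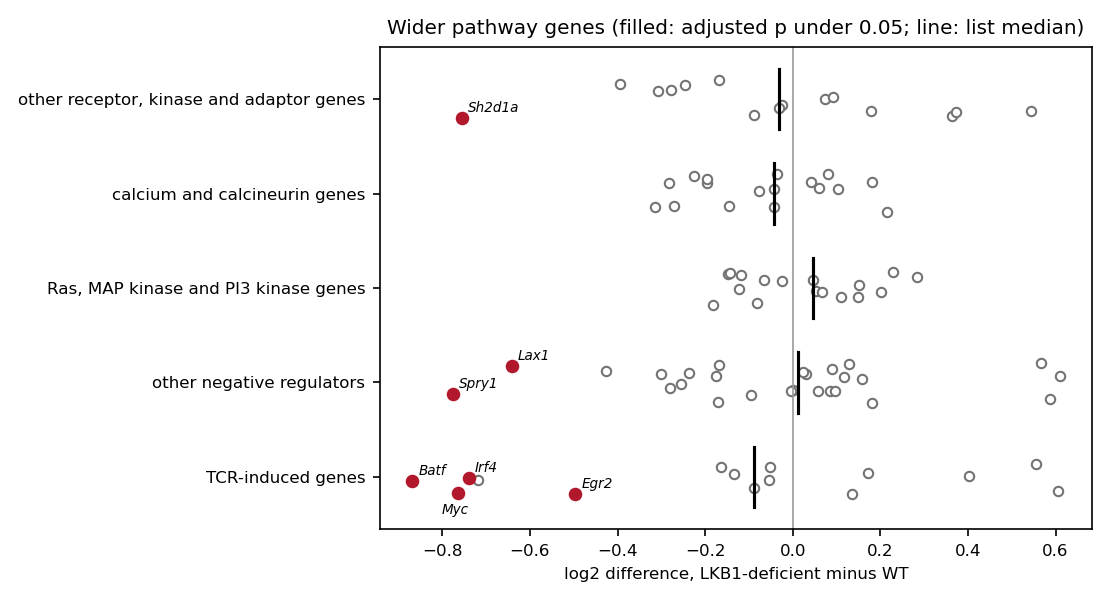
Log2 difference, LKB1-deficient minus WT, on the x axis of the 90 measured genes of 5 further lists of the pathway, 1 point per gene; filled points passed an adjusted p under 0.05, lines mark list medians, and the vertical spread within a list has no meaning. The 7 filled points lie between -0.87 (Batf) and -0.50 (Egr2), and none is to the right of 0.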

How the data were processed

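Per the labels' protocols, RNA of sorted Treg cells was purified on RNeasy Micro columns, amplified with NuGEN WTA Pico v2 and biotin-labelled. The authors deposited log2 values for 41345 probe sets on 10 arrays. RMA and Partek 6.6 are named in the submitters' processing notes, with no order or settings. RMA's quantile step hides any shift shared by all transcripts, amplification can distort levels, and no detection calls were used here.

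From these values, 23521 probe sets with 1 platform gene symbol gave 22180 genes by the highest mean, and 1814 probe sets with several symbols and 16010 with none were left out. The Entrez identifiers of all 32 members were in RefSeq's GRCm38.p6 table, with no differing symbol. limma 3.58.1 (R 4.3.3) compared 5 LKB1-deficient with 5 WT arrays with no covariate, and was tested on simulated data. All adjusted p-values of genes are limma's, over all genes. No array depth exists, and the number of arrays limits the precision.

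Named genes are all members, with array values for those called or with no overlap, the CD3 chains, the extremes and the 3 largest LKB1-deficient SDs, and called genes of the wider lists, or the smallest p of a list. Members and lists were chosen with earlier results of these data known, and 1 list of the wider pathway is not reported here. Alternatives were other probe set summaries, filters, scalings, priors and weights, blocks, the submission sets and each array left out, and, added after seeing the data, the fit without LKB1-deficient arrays 1, 4 and 5.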

Additional observations from a re-analysis of the deposited data

Results flagged for a closer look

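Single arrays stood apart from the others of their group in 2 of 84 tests of a gene within a group of 5 by Dixon's criterion, where chance alone gives about 5%. The tests covered Stk11, the measured members and, of each wider list, the called genes or else the gene with the smallest p. Ptpn22 was lowest on LKB1-deficient array 1, at 9.69, against 9.91 to 9.98 on the other 4 LKB1-deficient arrays. Nfatc1 was highest on WT array 3, at 9.25, against 8.91 to 8.96 on the other 4 WT arrays, and without that array its difference was -0.42 (limma adjusted p = 0.127). Foxp3, Nr4a3 and Egr3 were not among the genes tested. On LKB1-deficient array 1 they were at 9.86, 8.12 and 8.55. On LKB1-deficient arrays 2 to 5 they were at 11.10 to 11.50, 9.08 to 9.34 and 6.90 to 7.28.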

How the results depend on the processing

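Called members were 0 higher and 2 lower with all arrays. There was 1 higher (Cblb) with a trended robust prior, with array weights and without LKB1-deficient arrays 1, 4 and 5. There was 1 lower after a second quantile normalization, with the submission set as a block, at an adjusted p under 0.01 and without LKB1-deficient arrays 1, 4 and 5, and 0 in set 1 or set 2 alone, where fewer arrays were tested. Set 1 alone gave 0 calls by limma over all genes, with 2247 at an unadjusted p under 0.05. Leaving out 1 array gave 0 to 1 members higher and 1 to 2 lower, and 0 to 3 wider pathway genes higher and 2 to 8 lower. Wider pathway genes were 0 higher and 7 lower with all arrays. There was 1 higher with the dimmest 40% of genes removed, after a second quantile normalization and with the trended prior, 2 with array weights, 3 in set 2 alone and 4 without LKB1-deficient arrays 1, 4 and 5. There were 0 lower in set 1, 1 in set 2 and 2 at an adjusted p under 0.01. Calls over all 22180 genes moved too, from 52 higher and 184 lower with all arrays. With 1 array left out they ran from 8 and 30 (WT array 4) to 180 and 340 (LKB1-deficient array 1). They were 79 and 307 with the trended prior, 135 and 329 with array weights, and 62 and 163 after a second quantile normalization.

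Deviations of same-numbered arrays correlated at -0.08 to 0.10 over genes. The best matching WT array bore the same number for LKB1-deficient arrays 1 and 2, but not for arrays 3, 4 and 5. These correlations cannot tell whether same-numbered samples shared an animal, since LKB1-deficient arrays also differed among themselves in marker means. With the replicate number as a block there were 0 members higher and 0 lower, and 0 wider genes higher and 2 lower (Sh2d1a and Batf), and Ubash3b had an adjusted p of 0.0522. That fit called 14 of all 22180 genes higher and 36 lower.

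No called gene changed sign under these alternatives. Signs turned, without passing, for members that were not called, among them Sh2d2a and Cd6, whose estimates with all arrays were -0.20 and -0.15. With array medians subtracted the value was Cd4 -0.0189. After a second quantile normalization the values were Vav1 0.0222, Ubash3a 0.0048 and Ptprc 0.0097, and with array weights Ptprc 0.009. In set 1 alone they were Lat 0.0069, Plcg1 0.0608 and Prkcq 0.0319. In set 2 alone they were Cd4 -0.0299, Cd2 -0.0174, Vav1 0.0137, Sos1 0.0617, Ptpn6 0.0084, Ptpn22 0.0155, Dgka -0.12, Ubash3a 0.041 and Ptprc 0.0183. Without LKB1-deficient arrays 1, 4 and 5 they were Cd5 0.0681, Cd6 0.137, Lat 0.0451, Sh2d2a 0.0603, Plcg1 0.156, Vav1 0.0144, Prkcq 0.0818, Rasgrp1 0.0161, Sos1 0.0474, Ubash3a 0.0055 and Ptprc 0.073. With 1 array left out the estimates ran for Cd4 from -0.0309 to 0.0662, for Plcg1 from -0.106 to 0.0079, for Vav1 from -0.046 to 0.0147, for Sos1 from -0.128 to 0.0459, for Ptprc from -0.0318 to 0.0255. The cause was not tested.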

Other observations

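Of the 90 measured wider pathway genes, 11 (12.2%) lay below every WT array on all 5 LKB1-deficient arrays, and 0 lay above. Over all genes 3.71% lay lower and 0.996% higher with no overlap. With the dimmest 40% of genes removed these shares were 5.99% and 1.16%. Of the 11 wider pathway genes, 4 did not pass, and are named after their values were seen. Trat1, an adaptor that binds the receptor complex, was at 8.09, 8.03, 8.44, 8.18 and 8.16 on LKB1-deficient arrays 1 to 5, against 8.65, 8.54, 8.57, 8.56 and 8.54 on WT arrays 1 to 5 (difference -0.39, limma adjusted p = 0.0643). It passed with the dimmest 40% of genes removed, with array medians subtracted, with a trended robust prior and without LKB1-deficient array 3. The others were Tespa1, a gene of thymocyte receptor signalling (-0.31, limma adjusted p = 0.198), and the phosphatase genes Ptpn4 (-0.28, 0.163) and Ptpn7 (-0.43, 0.201).

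Other wider pathway genes, chosen because they passed without LKB1-deficient array 1, stood apart from WT on most LKB1-deficient arrays without passing, and are named here after their values were seen. Sla2 (SLAP-2), an adaptor that lowers receptor levels, was at 8.45, 8.87, 9.07, 9.07 and 9.16 on LKB1-deficient arrays 1 to 5, against 8.28, 8.54, 8.24, 8.38 and 8.34 on WT arrays 1 to 5 (difference 0.57, limma adjusted p = 0.0651). Nr4a3, an orphan nuclear receptor gene induced by receptor signalling, was at 8.12, 9.34, 9.08, 9.11 and 9.08 on LKB1-deficient arrays, against 8.34, 8.57, 8.41, 8.35 and 8.30 on WT arrays (0.55, limma adjusted p = 0.196). Egr3, a relative of Egr2, was at 8.55, 7.07, 7.28, 6.90 and 7.10 on LKB1-deficient arrays, against 8.01, 8.31, 8.17, 7.93 and 8.08 on WT arrays (-0.72, limma adjusted p = 0.219). Tnfrsf9, which encodes the costimulatory receptor 4-1BB, also passed without array 1 (with all arrays 0.40, limma adjusted p = 0.558). For Nr4a3 and Egr3, LKB1-deficient array 1 lay on the other side of the WT arrays from arrays 2 to 5. Without array 1 the differences were 0.69 for Sla2, 0.76 for Nr4a3 and -1.01 for Egr3 (limma adjusted p = 0.00482, 0.00247 and 0.00111). Since array 1 lay nearest to or past WT for each, the differences without it were bound to be larger.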
